A study of Mus musculus with 12 samples.

Results

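The CCR4-NOT complex is the main cytoplasmic deadenylase, the enzyme that shortens the poly(A) tail of mRNAs, and BTG4 is the adaptor that connects it to maternal mRNAs in the oocyte. The transcripts of 9 CCR4-NOT subunits (Cnot1, Cnot2, Cnot3, Cnot4, Cnot6, Cnot6l, Cnot7, Cnot8 and Cnot10) and of Btg4 were followed. These 10 genes were chosen by name from the 23230 genes in the table, and all of them were among the 11502 genes that reached 1 FPKM in 1 library or more. FPKM counts sequenced fragments relative to transcript length and library size, so that levels of genes of unequal length can be compared.

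Zar1 and Zar2 (listed as Zar1l) encode oocyte RNA-binding proteins. Oocytes were collected from wild-type (WT) females and from females null for both genes, all on a mixed C57BL6/ICR background, at 3 stages. Growing oocytes came from females labelled 13.5 days old (the study's methods give a somewhat younger age). Fully grown GV (germinal vesicle) oocytes came from females of 21 days and were taken 44 h after PMSG, and ovulated oocytes labelled MII were taken 16 h after hCG. The null alleles were made with CRISPR/Cas9 and act in all cells of the animal. The Zar1 allele has a small deletion followed by a stop codon, and the Zar2 allele has a frame-shifting deletion in exon 1. By the study's imaging, many ovulated Zar1/2-null oocytes had not completed meiosis I, so that the stage labelled MII differs between the genotypes in more than genotype. Each of the 6 groups (3 stages, 2 genotypes) had 2 Smart-seq2 libraries of 10 pooled oocytes, and nothing in the sources used here says whether the 2 came from separate females. The p-values therefore measure the spread between these libraries.

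A fully grown oocyte is transcriptionally silent and lives on stored mRNA. During meiotic maturation a large share of that mRNA is deadenylated and destroyed, while other transcripts, often those with a cytoplasmic polyadenylation element (CPE) close to the polyadenylation signal, gain poly(A) and are translated. CNOT1 is the scaffold of CCR4-NOT. CNOT7 and CNOT8 are alternative catalytic subunits of the CAF1 type, and CNOT6 and CNOT6L are alternative catalytic subunits of the CCR4 type. CNOT2 and CNOT3 form the NOT module, CNOT10 binds the N-terminal part of CNOT1, and CNOT4 is a RING-domain ubiquitin ligase that in mammals is only loosely attached. BTG4 has no catalytic activity of its own and binds CNOT7 and CNOT8.

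The sites below are shown because these elements bear on how an oocyte stores or activates an mRNA. In the annotation of the mm9 build that the files use, Btg4 lies at chr9:50924106-50927980 (plus strand), Cnot7 at chr8:41577894-41601201 (minus), Cnot8 at chr11:57917655-57932096 (plus), Cnot6 at chr11:49485005-49526225 (minus), Cnot6l at chr5:96499352-96593190 (minus), Cnot1 at chr8:98243351-98331366 (minus), Cnot2 at chr10:115922217-116018567 (minus), Cnot3 at chr7:3596892-3612710 (plus), Cnot10 at chr9:114494996-114549192 (minus) and Cnot4 at chr6:34972066-35083737 (minus). The annotated 3′ UTRs were searched on the sense strand for a CPE (TTTTAT or TTTTAAT) and for a polyadenylation signal (AATAAA or ATTAAA). A CPE was present in 9 of the 10 genes, all except Cnot10, against 64.5% of the 10193 expressed genes with a 3′ UTR of at least 100 bases. A CPE and a polyadenylation signal within a joint span of 30 bases were present in 5 of the 10 genes, against 23.1% of the 10193. A match in any annotated transcript of a gene counted, and the shares were not matched for 3′ UTR length, which reached 6847 bases in Cnot6l. These matches are of letters only, and an annotated 3′ end need not be the end used in oocytes. Each site is given in DNA letters, 5′ to 3′ on the strand of the mRNA, with the motifs in capitals:
Cnot7, chr8:41578392-41578412, minus strand: acaTTTTATatcAATAAAaat
Cnot8, chr11:57932056-57932081, plus strand: tgtTTTTAATtttgtaaAATAAAgat
Cnot6l, chr5:96504621-96504636, minus strand: tatTTTTAATAAAcaa
Cnot4, chr6:34994616-34994642, minus strand: cttATTAAActtcagccTTTTAATcag
Cnot3, chr7:3612681-3612701, plus strand: atgAATAAAtagTTTTATatg
Btg4 (CPE), chr9:50927583-50927608, plus strand: ttatgtaaaaTTTTATgaacactagt
Btg4 (signal), chr9:50927649-50927674, plus strand: ccggtgataaAATAAAatgaattata
In Cnot6l the CPE and the signal overlap. In Cnot3 and Cnot4 the signal precedes the CPE, and in Btg4 the closest CPE and signal start 66 bases apart. In Cnot1, Cnot2 and Cnot6 the closest CPE and signal spanned over 30 bases, and in Cnot10 neither motif was found. The printed signal started 24 bases before the annotated transcript end in Cnot8 and 19 in Cnot3. It lay further inside in the others, at 5278 bases in Cnot6l, 1931 in Cnot4, 507 in Cnot7 and 322 in Btg4.

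The deposited values had been multiplied by a factor from the ERCC spike-in, a set of synthetic RNAs added to each lysate, which was 1 in both WT growing libraries, 0.697 and 0.836 in WT GV, 0.225 and 0.228 in WT MII, 0.779 and 0.862 in Zar1/2-null growing, 0.533 and 0.583 in Zar1/2-null GV and 0.252 and 0.283 in Zar1/2-null MII oocytes. The summed FPKM of a library accordingly ran from 633130 to 638056 in WT growing oocytes down to 121121 to 128281 in WT MII oocytes. No gene had the same value above 0 in the 2 libraries of a group. The table holds no counts, so the counting error behind a value is unknown. Zar1l checked the labels: it had 639 and 644 FPKM in WT and 17.5 and 13.2 FPKM in Zar1/2-null growing oocytes, and 533 and 504 against 20.9 and 19.6 FPKM in GV oocytes. Zar1 RNA was still present in the Zar1/2-null libraries (407 and 460 FPKM in growing, 136 and 203 in GV, 190 and 194 in MII oocytes, against 603 and 725, 439 and 423, and 83.6 and 72.4 in WT), so its level does not check the labels. All 11 oocyte markers were at 1 FPKM or more in both libraries of every group except WT MII, where 10 were. The 14 granulosa and cumulus markers summed to 29.4 to 32.6 FPKM in WT and 14.2 to 22.4 FPKM in Zar1/2-null growing oocytes and to 20.3 FPKM or less in each later library. In growing oocytes 4 of the 14 in WT and 3 in Zar1/2-null were at 1 FPKM or more in both libraries. Cyp19a1 had 19.0 and 16.7 FPKM in WT and 7.72 and 2.53 FPKM in Zar1/2-null growing oocytes, while Ptx3 was listed at 0 in all 6 groups. The 6 immune markers summed to 3.24 FPKM or less. The 6 epithelial markers summed to 91.3 and 108 FPKM in Zar1/2-null growing oocytes and to 14.6 to 33.7 FPKM in the other libraries. Almost all of that difference was the keratin gene Krt8 (72.8 and 88.0 FPKM in Zar1/2-null against 3.84 and 3.59 FPKM in WT growing oocytes), while Krt18 had a mean of 0.0744 FPKM or less in every group and Krt19 was listed at 0. Cdh1 had 17.7 and 19.3 FPKM in Zar1/2-null against 27.5 and 29.4 FPKM in WT growing oocytes. The part of these genes in the results was not tested.

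**Figure D1:**
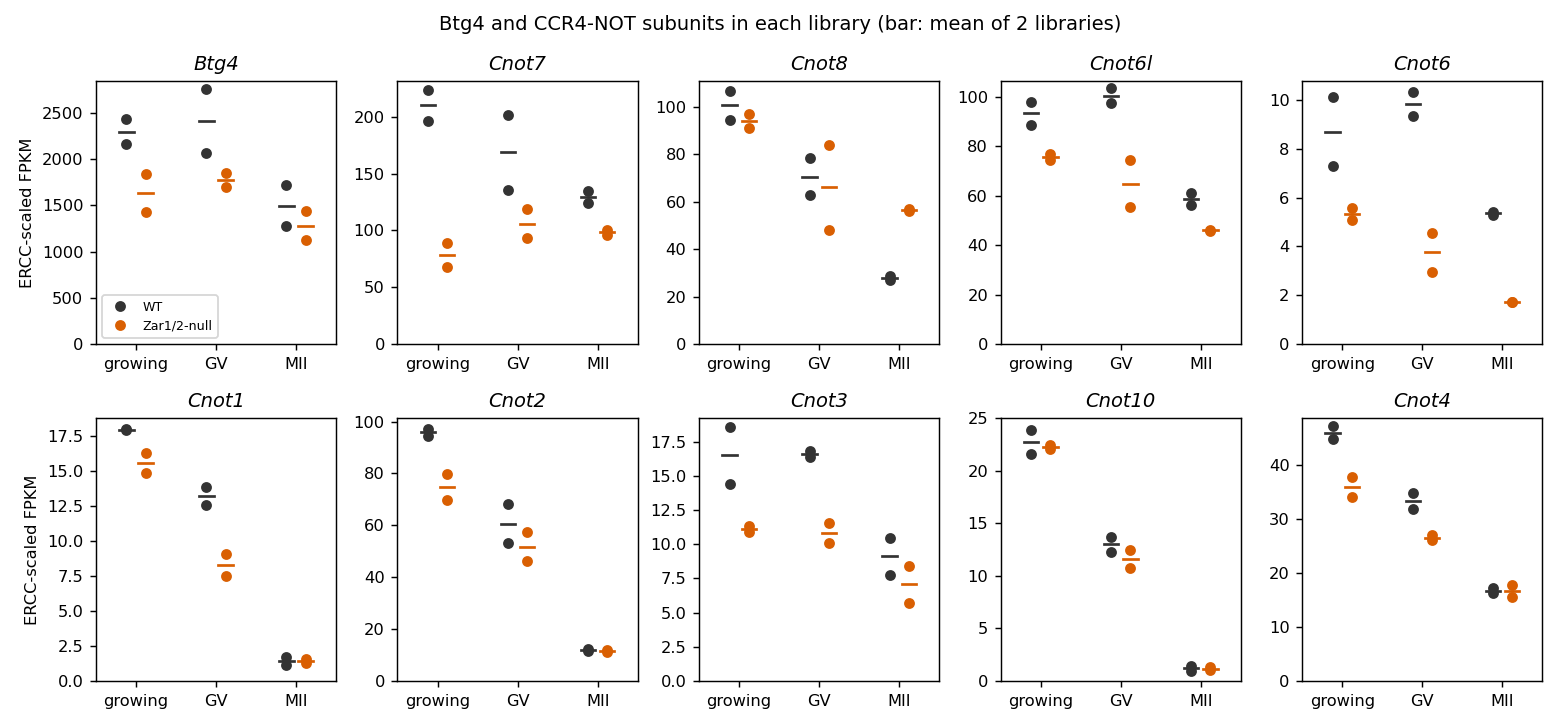
ERCC-scaled FPKM (vertical axes, each from 0 with its own scale) of Btg4 and 9 CCR4-NOT subunits in growing, GV and MII oocytes; points are libraries, bars are means of 2 libraries, WT dark and Zar1/2-null orange. Cnot7 stands lowest in the Zar1/2-null growing libraries, Cnot6 is lower in Zar1/2-null libraries at every stage, and Cnot8 at MII is at 56.0 to 56.8 FPKM in Zar1/2-null against 27.1 to 28.7 FPKM in WT.

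Btg4 was by far the most abundant of the 10 transcripts in each library. It ranked between 6th and 29th of the 11502 genes, whereas the best placed CCR4-NOT subunit, Cnot7, ranked between 142nd and 1377th. In WT GV oocytes the mean levels ran from Btg4 (2414 ± 492 FPKM, SD, n = 2) through Cnot7 (169 ± 46.8), Cnot6l (100.3 ± 4.31), Cnot8 (70.6 ± 10.9), Cnot2 (60.5 ± 10.6), Cnot4 (33.3 ± 2.14), Cnot3 (16.6 ± 0.284), Cnot1 (13.2 ± 0.897) and Cnot10 (13.0 ± 0.978) to Cnot6 (9.84 ± 0.692). The libraries of neighbours in that order overlapped for Cnot8 with Cnot2 and for Cnot1 with Cnot10, and the other neighbours were separated. In WT growing oocytes Cnot8, Cnot2 and Cnot6l overlapped at 88.6 to 107 FPKM, Cnot1 overlapped with Cnot3, and Cnot6 was again the lowest. In WT MII oocytes Cnot7 (135 and 124 FPKM) and Cnot6l (56.1 and 61.1 FPKM) kept the places after Btg4, while Cnot1 and Cnot10, which overlapped each other, were the lowest at 0.922 to 1.68 FPKM. The order differed in Zar1/2-null growing oocytes, where Cnot8 (97.1 and 90.9 FPKM) stood above Cnot7 (89.0 and 67.7 FPKM), Cnot7 overlapped with Cnot6l, and Cnot6l with Cnot2. In Zar1/2-null GV oocytes Cnot7 was again the highest subunit, Cnot8 overlapped with Cnot6l, Cnot6l with Cnot2 and Cnot10 with Cnot3, and in Zar1/2-null MII oocytes only Cnot1 and Cnot10 overlapped. A part of the sequence of Cnot1, Cnot3 and Cnot8 also occurs elsewhere in the genome (10.5%, 25.2% and 11.4% of the 50-base words of the longest coding transcript), so that the use of uniquely mapped reads can lower their FPKM. For the other 7 genes an alignment of that transcript to the genome reported no other locus. The words were compared only with reported loci and among the 10 genes, so shorter repeats elsewhere could go unseen.

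The first question was how the loss of Zar1 and Zar2 bears on these transcripts at each stage. Differences were tested with limma on log2(FPKM + 1), which shrinks the fold changes of weakly expressed genes. A gene was called at an adjusted p (Benjamini-Hochberg) under 0.05 over all genes. A comparison of 2 libraries against 2 cannot reach a p below 0.333 in an exact permutation test of single values. In growing oocytes 2 of the 10 genes fell in Zar1/2-null libraries (Cnot7 and Cnot6) and none rose, where 24.4% of all genes tested were called lower and 10.6% higher. In GV oocytes 5 fell (Cnot6, Cnot7, Cnot6l, Cnot1 and Cnot3) and none rose, where 40.6% of all genes were called lower and 2.83% higher. In MII oocytes 1 fell (Cnot6) and 1 rose (Cnot8), where 10.3% of all genes were called lower and 21.5% higher. The median log2 fold change of the 10 genes was -0.35, -0.50 and -0.12 at the 3 stages, against -0.16, -0.38 and 0.06 over all genes. Without the added 1 FPKM, the median ratio of the Zar1/2-null to the WT mean was 0.78, 0.69 and 0.92 for the 10 genes. Over all genes with both means above 0 it was 0.88, 0.71 and 1.15, so that the 2 medians were close at GV. The counts at all 3 stages depended on the spike-in. Without ERCC scaling only Cnot7 was called in growing oocytes and only Cnot6 in GV oocytes, whereas in MII oocytes 5 were called lower (Btg4, Cnot3, Cnot6, Cnot6l and Cnot7) and Cnot8 higher. The medians of the 10 genes were then -0.07, -0.07 and -0.36. Of the 12155 genes then tested, 1425 were called lower and 1756 higher in growing, 1590 and 882 in GV and 2761 and 2908 in MII oocytes.

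**Figure D2:**
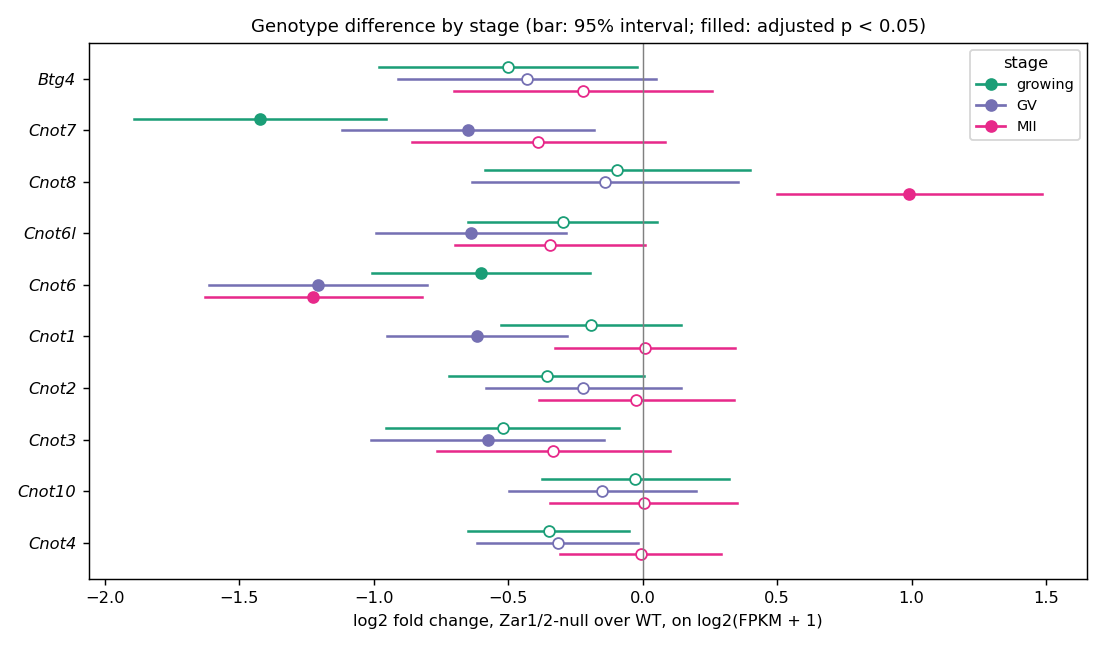
Log2 fold change (horizontal axis, Zar1/2-null over WT, on log2(FPKM + 1)) of each of the 10 genes at the growing, GV and MII stages; bars are 95% intervals from limma and filled points passed an adjusted p of 0.05. The largest decreases are Cnot7 in growing oocytes (-1.42) and Cnot6 in GV (-1.21) and MII oocytes (-1.22), and Cnot8 in MII oocytes (0.99) is the filled point above 0.

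Btg4, the adaptor, had 2430 and 2161 FPKM in WT growing, 2762 and 2067 in WT GV, and 1722 and 1275 in WT MII oocytes. In Zar1/2-null oocytes it had 1839 and 1427, 1699 and 1853, and 1436 and 1124 FPKM. The highest Zar1/2-null library was under the lowest WT library at the growing and GV stages, as for 47.4% and 63.6% of all genes. The genotypes overlapped at MII. The difference did not pass the test at any stage: the log2 fold change was -0.50 in growing oocytes (95% interval -0.98 to -0.02, adjusted p = 0.0982), -0.43 in GV oocytes (-0.91 to 0.05, adjusted p = 0.131) and -0.22 in MII oocytes (-0.70 to 0.26, adjusted p = 0.518). With the ERCC factors of the 2 replicates averaged it was called lower at both earlier stages (adjusted p = 0.0298 and 0.0442). With a term for the replicate number in limma it was called lower at these stages too (adjusted p = 0.0185 and 0.0295). Without ERCC scaling the Zar1/2-null GV mean of Btg4 was 1.02 times the WT mean. At MII it was called lower without ERCC scaling (-0.46, adjusted p = 0.0323).

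Cnot7, the CAF1-type nuclease that is the more abundant of its pair in WT oocytes, showed the largest difference in growing oocytes. It had 224 and 197 FPKM in WT growing oocytes, and 89.0 and 67.7 FPKM in Zar1/2-null growing oocytes. The means differed 2.68-fold, with both Zar1/2-null libraries far below both WT libraries (log2 fold change -1.42, SE 0.21, adjusted p = 0.00053). Unlike most differences here, this one was called in all 13 alternatives that applied to it, with a log2 fold change of -1.62 to -1.13. The level in WT then went to 202 and 136 FPKM in GV and to 135 and 124 FPKM in MII oocytes, and in Zar1/2-null oocytes to 93.3 and 118 and to 100.8 and 96.3 FPKM. The genotypes did not overlap at either stage, and the difference was -0.65 in GV oocytes (SE 0.21, adjusted p = 0.0296) and -0.39 in MII oocytes (95% interval -0.86 to 0.08, adjusted p = 0.204). The GV call was lost without ERCC scaling (-0.20, adjusted p = 0.392). It was also lost without WT GV replicate 1 (-0.36, adjusted p = 0.25) and without Zar1/2-null GV replicate 1 (-0.48, adjusted p = 0.171). The MII difference was called without ERCC scaling (-0.63, adjusted p = 0.00475). From growing to GV oocytes Cnot7 was thus lower in WT and higher in Zar1/2-null means, but the difference of these changes did not pass the test (0.77 on the log2 scale, 95% interval 0.11 to 1.44, adjusted p = 0.114). It was called without ERCC scaling (0.94, adjusted p = 0.0287), with median scaling (1.02, adjusted p = 0.0362) and with averaged factors (0.77, adjusted p = 0.0354).

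Cnot8, the other CAF1-type nuclease, was not called in growing or GV oocytes. It had 94.3 and 107 FPKM in WT and 97.1 and 90.9 FPKM in Zar1/2-null growing oocytes, where the genotypes overlapped (log2 fold change -0.09, 95% interval -0.59 to 0.40). In GV oocytes it had 78.3 and 62.9 against 48.1 and 83.8 FPKM (-0.14, 95% interval -0.63 to 0.35). The Zar1/2-null GV replicates were relatively further apart than any other pair among the 10 genes, and without the higher one, replicate 2, Cnot8 was called lower (-0.53, adjusted p = 0.0386). In MII oocytes it had 28.7 and 27.1 FPKM in WT and 56.8 and 56.0 FPKM in Zar1/2-null oocytes. The Zar1/2-null MII mean was 2.02 times the WT mean, and Cnot8 was the only one of the 10 genes called higher at any stage (0.99, SE 0.22, adjusted p = 0.00532). That call was made in all 13 alternatives, with a log2 fold change of 0.77 to 1.03.

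The CCR4-type nucleases are carried mainly by Cnot6l in the oocyte, and Cnot6 was the lowest of the 10 genes in both growing and GV oocytes. Cnot6 had 10.1 and 7.28, 10.3 and 9.35, and 5.42 and 5.30 FPKM in WT growing, GV and MII oocytes. In Zar1/2-null oocytes it had 5.57 and 5.07, 4.56 and 2.95, and 1.74 and 1.71 FPKM. The genotypes were separated at all 3 stages. The means differed 1.63-fold in growing oocytes (log2 fold change -0.60, SE 0.18, adjusted p = 0.0259). They differed 2.62-fold in GV oocytes (-1.21, SE 0.18, adjusted p = 0.000517) and 3.11-fold in MII oocytes (-1.22, SE 0.18, adjusted p = 0.000346). The GV and MII calls were made in all 13 alternatives of each. The growing call was made in 8 of 13, and was lost without ERCC scaling (-0.36, adjusted p = 0.247), with median scaling, and without WT growing replicate 1 or either Zar1/2-null growing replicate. Cnot6l, the close relative of Cnot6, had 97.8 and 88.6, 103 and 97.3, and 56.1 and 61.1 FPKM in WT, and 74.4 and 76.7, 74.2 and 55.3, and 45.9 and 45.9 FPKM in Zar1/2-null oocytes. It was separated between the genotypes at each stage and was called only in GV oocytes (-0.64, SE 0.16, adjusted p = 0.00855), a call that was lost without ERCC scaling (-0.19, adjusted p = 0.488) and without WT GV replicate 1 (-0.60, adjusted p = 0.0523). At MII Cnot6l was called lower without ERCC scaling (-0.59, adjusted p = 0.0159) and with median scaling (-0.57, adjusted p = 0.0133).

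Of the non-catalytic subunits, Cnot1 and Cnot3 were called lower in Zar1/2-null GV oocytes and at no other stage. The scaffold Cnot1 had 13.9 and 12.6 FPKM in WT GV and 9.09 and 7.51 FPKM in Zar1/2-null GV oocytes, without overlap (log2 fold change -0.62, SE 0.15, adjusted p = 0.00779). Cnot3, of the NOT module, had 16.8 and 16.4 FPKM in WT GV and 11.6 and 10.1 FPKM in Zar1/2-null GV oocytes, also without overlap (-0.58, SE 0.20, adjusted p = 0.0352). Neither call was made without ERCC scaling (-0.21 and -0.16, adjusted p = 0.486 and 0.637), the Cnot1 call was lost without WT GV replicate 1, and the Cnot3 call without any 1 of the 4 GV libraries. At MII Cnot3 was called lower without ERCC scaling (-0.60, adjusted p = 0.0295) and with median scaling (-0.58, adjusted p = 0.0254). In growing oocytes Cnot1 had 17.95 and 17.93 FPKM in WT and 14.9 and 16.3 FPKM in Zar1/2-null libraries, and Cnot3 had 18.6 and 14.4 against 11.3 and 10.9 FPKM. The partner of Cnot3 in the NOT module, Cnot2, had 97.2 and 94.5 against 79.7 and 69.9 FPKM in growing and 68.0 and 53.0 against 46.1 and 57.3 FPKM in GV oocytes, where it overlapped between the genotypes. Cnot10 overlapped between the genotypes at all stages (21.6 and 23.9 against 22.1 and 22.5 FPKM in growing oocytes). The ubiquitin ligase Cnot4 had 44.8 and 47.1 against 37.8 and 34.0 FPKM in growing and 34.8 and 31.8 against 26.0 and 27.0 FPKM in GV oocytes. Its log2 fold change of -0.35 in growing oocytes (95% interval -0.65 to -0.05, adjusted p = 0.0676) and of -0.32 in GV oocytes (-0.62 to -0.02, adjusted p = 0.0803) did not pass the test. At MII the differences of Cnot1, Cnot2, Cnot10 and Cnot4 were between -0.02 and 0.01, with 95% intervals inside -0.39 to 0.35. Without ERCC scaling they were -0.19, -0.26, -0.19 and -0.24, and none of these was called. Cnot1 and Cnot10 were at 0.922 to 1.68 FPKM in the MII libraries, where the added 1 FPKM shrinks a difference.

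The FPKM ratio of 2 of the genes within a library does not depend on the spike-in factor, whereas the tested log2 ratio, with 1 FPKM added to each gene after scaling, does so for low genes. Cnot7 was 1.84 to 2.37 times as abundant as Cnot8 in WT growing, 2.16 to 2.58 times in WT GV and 4.58 to 4.69 times in WT MII oocytes. In Zar1/2-null oocytes the ratio was 0.745 to 0.917, 1.41 to 1.94 and 1.72 to 1.77. Both Zar1/2-null libraries were below both WT libraries at all 3 stages, and Cnot7 made up 42.7% to 47.8% of the summed Cnot7 and Cnot8 level in Zar1/2-null growing oocytes against 64.8% to 70.3% in WT. On the log2 scale the ratio was lower by 1.33, 0.51 and 1.38 in growing, GV and MII oocytes, with a mean difference of -1.07 (p = 0.00926, the smallest that a two-sided exact permutation test within stages can give; adjusted p = 0.0185 over the 4 ratios).

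Cnot6l was 9.67 to 12.2 times as abundant as Cnot6 in the 6 WT libraries. In Zar1/2-null libraries the ratio was 13.3 to 15.1 in growing, 16.3 to 18.7 in GV and 26.4 to 26.9 in MII oocytes. All 6 Zar1/2-null libraries were above all 6 WT libraries, and the mean log2 difference was 0.58 (exact permutation p = 0.00926, also the smallest possible, adjusted p = 0.0185). Without the added 1 FPKM, and so without the spike-in factor, it was 0.82 with the same p, and the Cnot7 to Cnot8 difference was -1.09. The Btg4 to Cnot7 ratio was 10.9 and 11.0 in WT and 20.7 and 21.1 in Zar1/2-null growing oocytes, 13.7 and 15.2 against 18.2 and 15.6 in GV, and 12.8 and 10.3 against 14.2 and 11.7 in MII oocytes. It was separated between the genotypes in growing and GV oocytes and overlapped at MII, with a mean log2 difference of 0.44 (exact permutation p = 0.0278, adjusted p = 0.037). That call was lost without WT GV replicate 1, WT MII replicate 2, Zar1/2-null GV replicate 1 or Zar1/2-null MII replicate 1 (exact permutation, adjusted p = 0.0617, 0.0864, 0.0556 and 0.0648). The Cnot2 to Cnot3 ratio overlapped between the genotypes at each stage, and its mean log2 difference of 0.28 did not pass the test (exact permutation p = 0.0833, adjusted p = 0.0833).

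**Figure D3:**
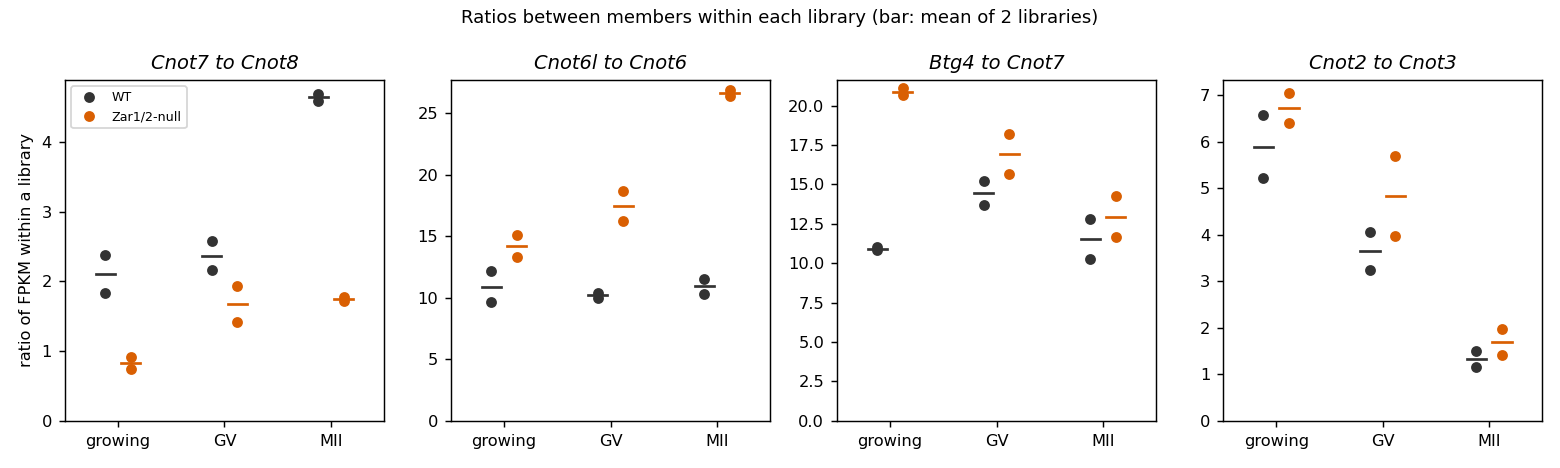
Ratio of the FPKM of 2 genes within each library (vertical axes, each from 0 with its own scale) in growing, GV and MII oocytes; points are libraries, bars are means of 2 libraries, WT dark and Zar1/2-null orange. The Cnot7 to Cnot8 ratio is lower and the Cnot6l to Cnot6 ratio is higher in Zar1/2-null oocytes at every stage, and the Cnot2 to Cnot3 ratio is 1.97 or less at MII in both genotypes against 3.23 or more before.

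The second question was how the 10 transcripts change as the oocyte grows and matures. From growing to GV oocytes 3 of the 10 genes fell in WT (Cnot10, Cnot2 and Cnot4) and 4 in Zar1/2-null oocytes (Cnot10, Cnot1, Cnot2 and Cnot4), and none rose in either. Of all genes, 28.7% were called lower and 2.77% higher in WT, and 55.9% lower and 4.76% higher in Zar1/2-null oocytes. Cnot10 showed the largest decrease in both: from 21.6 and 23.9 to 13.7 and 12.3 FPKM in WT (log2 fold change -0.76, SE 0.16, adjusted p = 0.00649). It went from 22.1 and 22.5 to 10.8 and 12.5 FPKM in Zar1/2-null oocytes (-0.89, SE 0.16, adjusted p = 0.000725). None of these decreases was called without ERCC scaling or with median scaling. In WT the Cnot10 call was also lost without WT growing replicate 2 or WT GV replicate 2, and those of Cnot2 and Cnot4 also without WT growing replicate 1. In Zar1/2-null oocytes those of Cnot2 and Cnot4 were lost without growing replicate 1 or GV replicate 1. Btg4 differed little between the stages (0.06 in WT, 95% interval -0.42 to 0.54, and 0.13 in Zar1/2-null oocytes, -0.35 to 0.61). Without ERCC scaling Btg4 (0.69, adjusted p = 0.00673) and Cnot7 (0.99, adjusted p = 0.00064) were called higher in Zar1/2-null GV than growing oocytes. The difference between the genotypes in this change was called for none of the 10 genes (11.3% of all genes lower and 2.58% higher); by limma, 2 of the 10 had an unadjusted p under 0.05, Cnot7 (0.0264) and Cnot6 (0.0397).

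From GV to MII the transcripts of the complex parted. In WT oocytes 9 of the 10 genes fell and none rose, where 93.4% of all genes were called lower and 0.104% higher. The mean level of the median gene was 5.28-fold lower at MII, against 1.91-fold for the median of the 10 genes. The decrease was largest for Cnot10, which went from 13.7 and 12.3 to 0.922 and 1.45 FPKM (11.0-fold lower mean), for the scaffold Cnot1, from 13.9 and 12.6 to 1.16 and 1.68 FPKM (9.32-fold), and for Cnot2, from 68.0 and 53.0 to 11.6 and 12.1 FPKM (5.11-fold). It was 2.53-fold for Cnot8, 1.99-fold for Cnot4, 1.84-fold for Cnot6, 1.82-fold for Cnot3, 1.71-fold for Cnot6l and 1.61-fold for Btg4 (log2 fold change -0.69, SE 0.22, adjusted p = 0.0104). Cnot7 was the exception, with a 1.31-fold lower mean that did not pass the test (-0.36, 95% interval -0.82 to 0.11, adjusted p = 0.129). With averaged ERCC factors Cnot7 was called lower too (-0.36, limma adjusted p = 0.0357). The Btg4 call was lost without WT GV replicate 1 (-0.48, adjusted p = 0.108) and without WT MII replicate 2 (-0.47, adjusted p = 0.105), and Cnot7 was called without WT GV replicate 2 (-0.64, adjusted p = 0.0198). In this bulk measurement fewer lysed oocytes and less polyadenylated RNA per oocyte cannot be told apart.

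The direction of the smaller decreases depended on the spike-in factors, which multiply all genes of a library alike. Without ERCC scaling, 3 of the 10 genes were called lower in WT MII than in WT GV oocytes (Cnot1, Cnot2 and Cnot10) and 6 higher (Btg4, Cnot3, Cnot4, Cnot6, Cnot6l and Cnot7), against 5603 and 2332 of 12155 genes. The unscaled mean at MII was 0.307 of the GV mean for Cnot10, 0.362 for Cnot1 and 0.666 for Cnot2, and 2.62 times the GV mean for Cnot7, 2.12 times for Btg4 and 1.97 times for Cnot6l. The gap between these subunits is within the library and is the same with either scale. It is also seen in the ranks, where Cnot7 went from places 572 and 695 of the 11502 genes in WT GV to places 144 and 142 in WT MII oocytes. In percentiles Cnot6l went from 90.7 and 91.8 to 96.7 and 97.2, whereas Cnot1 went from 63.0 and 63.8 to 52.8 and 57.1 and Cnot10 from 62.6 and 63.3 to 49.0 and 54.6. The Cnot2 to Cnot3 ratio went from 4.05 and 3.23 in WT GV to 1.49 and 1.15 in WT MII oocytes.

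**Figure D4:**
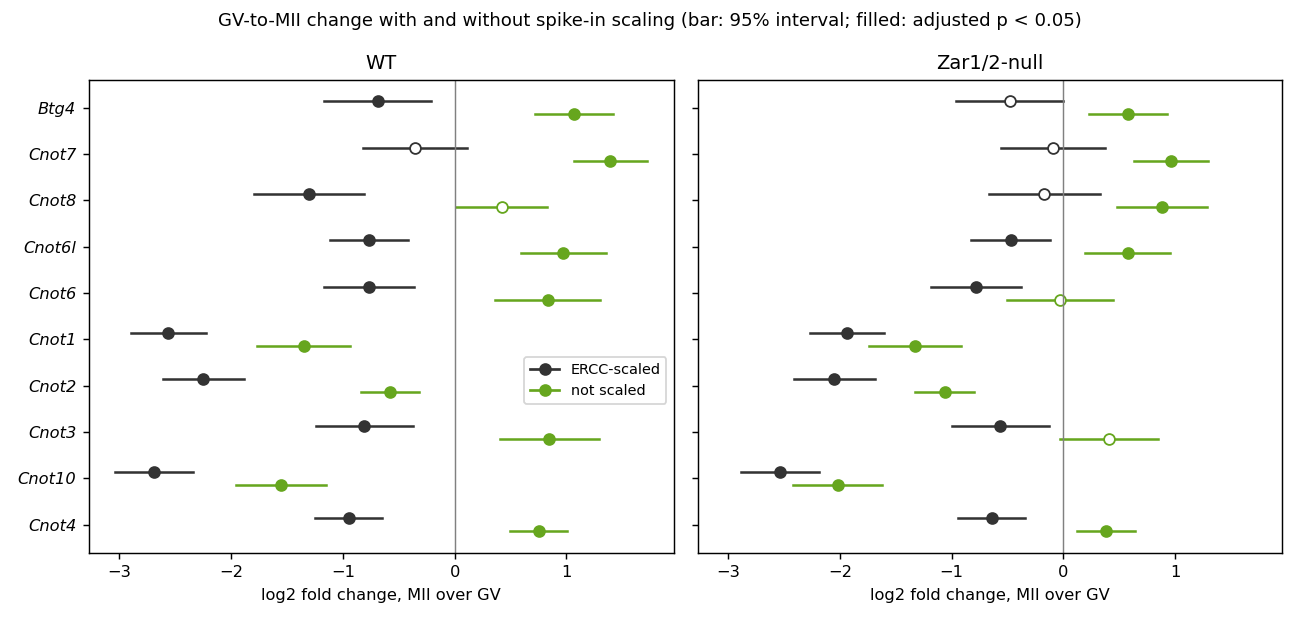
Log2 fold change from GV to MII (horizontal axes, on log2(FPKM + 1)) of each of the 10 genes in WT (left) and Zar1/2-null oocytes (right), with the deposited ERCC scaling (dark) and without it (green); bars are 95% intervals from limma and filled points passed an adjusted p of 0.05. Cnot1, Cnot2 and Cnot10 are below 0 with either scale, and Btg4, Cnot7, Cnot8, Cnot6l, Cnot3 and Cnot4 are on opposite sides of 0 in both genotypes.

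In Zar1/2-null oocytes 7 of the 10 genes fell from GV to MII and none rose, where 68.7% of all genes were called lower and 0.209% higher. The mean level of the median gene was 2.79-fold lower at MII, against 1.56-fold for the median of the 10 genes. Cnot10 again showed the largest decrease, from 10.8 and 12.5 to 1.35 and 1.01 FPKM (9.86-fold), followed by Cnot1, from 9.09 and 7.51 to 1.55 and 1.29 FPKM (5.83-fold), and Cnot2, from 46.1 and 57.3 to 11.98 and 11.3 FPKM (4.44-fold). Cnot6 (2.18-fold), Cnot4 (1.59-fold), Cnot3 (1.53-fold) and Cnot6l (1.41-fold) also fell. The Cnot3 call (-0.57) was lost without Zar1/2-null MII replicate 2 (-0.32, adjusted p = 0.224) or GV replicate 1 (-0.48, adjusted p = 0.113). The Cnot6l call (-0.47) was lost without GV replicate 1 (-0.26, adjusted p = 0.156) or either MII replicate (-0.47, adjusted p = 0.0663 and 0.069). Btg4 (log2 fold change -0.48, 95% interval -0.96 to 0.00, adjusted p = 0.0692), Cnot8 (-0.17, -0.66 to 0.32, adjusted p = 0.515) and Cnot7 (-0.09, -0.56 to 0.38, adjusted p = 0.712) did not pass the test. Btg4 was called without MII replicate 1 (-0.66, adjusted p = 0.0462) and Cnot8 without GV replicate 1 (-0.56, adjusted p = 0.0186). Without ERCC scaling 5 of the 10 were called higher and 3 lower, against 2289 and 4779 of 12155 genes.

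A genotype difference in the change from GV to MII was called for 2 of the 10 genes, both with a smaller decrease in Zar1/2-null oocytes, where 33.9% of all genes were called in that direction and 0.643% in the other. For Cnot8 the mean was 2.53-fold lower at MII than at GV in WT and 1.17-fold lower in Zar1/2-null oocytes (difference of log2 changes 1.13, SE 0.32, adjusted p = 0.0187). For Cnot1 it was 9.32-fold and 5.83-fold lower (0.63, SE 0.22, adjusted p = 0.0435). At MII itself Cnot1 was at 1.16 and 1.68 FPKM in WT and 1.55 and 1.29 FPKM in Zar1/2-null oocytes. Both calls were lost without ERCC scaling and without WT GV replicate 1 (adjusted p = 0.25 and 0.0812 for Cnot8, 0.971 and 0.124 for Cnot1). The Cnot8 call was also lost without WT MII replicate 2 or Zar1/2-null MII replicate 1, and the Cnot1 call also without WT GV replicate 2, WT MII replicate 1, Zar1/2-null GV replicate 2 or either Zar1/2-null MII replicate. The median difference over all genes was 0.48, and over the 10 genes 0.25, with 9 of 10 above 0. The direction turned without ERCC scaling, where 8 of the 10 were below 0 with a median of -0.43 and none was called by limma (3 had an unadjusted p under 0.05), against a median of 0.03 over all genes.

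The other parts of the machinery were counted from lists of genes. Beside the counts stand the shares of all genes called in Zar1/2-null oocytes, which were 24.4% lower and 10.6% higher in growing, 40.6% and 2.83% in GV, and 10.3% and 21.5% in MII oocytes. The remaining CCR4-NOT subunits, Cnot9 (listed as Rqcd1), Cnot11 (listed as D1Bwg0212e) and Tnks1bp1, were all called lower in Zar1/2-null GV oocytes and none was called in growing oocytes (median log2 fold change -0.59 in GV oocytes against -0.38 over all genes). None of the 3 was called at GV without ERCC scaling. Cnot11, which forms a module with CNOT10, had 42.0 and 41.6 FPKM in WT GV and 33.0 and 26.1 FPKM in Zar1/2-null GV oocytes (D1Bwg0212e, log2 fold change -0.50, SE 0.15, adjusted p = 0.0202). Cnot9 had 29.7 and 20.5 against 12.9 and 15.7 FPKM (Rqcd1, -0.75, SE 0.19, adjusted p = 0.00936) and was also called lower at MII (-0.63, SE 0.19, adjusted p = 0.0272; -0.99 without ERCC scaling, adjusted p = 0.000241). From GV to MII all 3 fell in WT, where 93.4% of all genes were called lower, and 1 of the 3 fell without ERCC scaling. Rqcd1 went to 4.31 and 4.32 FPKM and D1Bwg0212e to 11.5 and 10.0 FPKM.

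Of 9 genes listed as other deadenylases or their relatives, 2 fell and 1 rose in Zar1/2-null growing oocytes, 4 fell in GV oocytes, and 2 fell and 2 rose in MII oocytes. The medians were 0.02, -0.50 and 0.10 against -0.16, -0.38 and 0.06 over all genes. The 4 of 9 called lower at GV compare with 40.6% of all genes. Without ERCC scaling 2 fell and 2 rose in growing oocytes, 2 fell in GV oocytes, and 2 fell and 2 rose in MII oocytes. Pan3, a subunit of the PAN2-PAN3 deadenylase, fell at all 3 stages. It had 57.2 and 55.7 FPKM in WT and 29.3 and 26.9 FPKM in Zar1/2-null growing oocytes (log2 fold change -0.98, SE 0.17, adjusted p = 0.00142). It had 58.1 and 51.7 against 24.1 and 16.5 FPKM in GV (-1.41, adjusted p = 0.000149) and 35.2 and 33.3 against 13.9 and 15.3 FPKM in MII oocytes (-1.18, adjusted p = 0.000304). Without ERCC scaling Pan3 was called lower at the 3 stages too. Its enzymatic partner Pan2 had 17.7 and 17.8 against 13.4 and 10.7 FPKM in GV oocytes (-0.53, adjusted p = 0.0241). Ccrn4l, which encodes nocturnin, had 86.0 and 90.1 against 62.7 and 49.2 FPKM (-0.65, adjusted p = 0.00715). Neither was called without ERCC scaling (-0.11 and -0.21). Angel2, a relative of the CCR4 nucleases, fell in growing oocytes (86.6 and 89.9 against 51.0 and 41.4 FPKM; -0.93, adjusted p = 0.00321). Angel1 rose in MII oocytes (1.93 and 2.57 against 4.81 and 6.42 FPKM; 1.02, adjusted p = 0.00164). Pnldc1, a PARN-like nuclease, was at 0.162 and 0.303 FPKM in WT and 2.54 and 1.80 FPKM in Zar1/2-null MII oocytes (1.35, adjusted p = 0.000845). The remaining calls, named after their values were seen, were Toe1 in growing oocytes (0.83) and Pde12 in GV (-0.95) and MII oocytes (-0.57). In WT from GV to MII all 9 fell with the deposited scaling, where 93.4% of all genes were called lower. Without that scaling 4 fell and 4 rose, against 5603 and 2332 of 12155 genes.

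The other BTG/TOB adaptors were far below Btg4, and 4 of the 5 passed the filter (Btg3 did not). In WT GV oocytes Tob2 had 18.5 and 20.1 FPKM and Tob1 9.74 and 9.71 FPKM. All 4 tested were called lower in Zar1/2-null GV oocytes, where 40.6% of all genes were (1 of 4, Btg2, without ERCC scaling), while in growing oocytes 1 rose and 1 fell and in MII oocytes 2 fell (Btg1 and Btg2), with medians of 0.15, -0.62 and -0.32 in growing, GV and MII oocytes against -0.16, -0.38 and 0.06 over all genes. Without ERCC scaling 2 rose and 1 fell in growing and 2 fell in MII oocytes. The one that rose was Tob1 (12.4 and 12.6 FPKM in WT against 23.3 and 29.4 FPKM in Zar1/2-null growing oocytes; log2 fold change 1.01, SE 0.14, adjusted p = 0.000265). The one that fell was Btg2, named after its values were seen (6.09 and 6.52 against 2.47 and 2.41 FPKM). From GV to MII in WT all 4 fell with the deposited scaling, where 93.4% of all genes were called lower (3 of 4 without it, where 1 rose). Tob1 had 0.116 and 0.133 FPKM in WT MII oocytes, unlike Btg4 at 1722 and 1275 FPKM.

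Of 16 RNA-binding proteins that bring mRNAs to CCR4-NOT or bind its substrates, 14 were tested. Of these, 5 rose and 2 fell in Zar1/2-null growing oocytes, 1 rose and 8 fell in GV oocytes, and 3 rose and 3 fell in MII oocytes, with medians of 0.03, -0.54 and -0.03 against -0.16, -0.38 and 0.06 over all genes. The 8 of 14 called lower at GV compare with 40.6% of all genes, and the 5 of 14 called higher in growing oocytes with 10.6%. Without ERCC scaling 5 rose and 1 fell, 2 rose and 5 fell, and 3 rose and 6 fell at these stages. Pabpn1l, the oocyte poly(A)-binding protein that works with BTG4, fell in growing oocytes (489 and 469 FPKM in WT against 201 and 207 FPKM in Zar1/2-null; log2 fold change -1.23, SE 0.23, adjusted p = 0.00223). It rose in GV oocytes (290 and 308 against 492 and 619 FPKM; 0.88, adjusted p = 0.0111) and in MII oocytes (55.9 and 65.2 against 226 and 128 FPKM; 1.48, adjusted p = 0.000499). The genotype difference itself changed between the growing and GV stages for Pabpn1l (2.11, SE 0.33, adjusted p = 0.00353), and its 3 calls were also made without ERCC scaling. Ythdf2, a reader of methylated adenosine that recruits CCR4-NOT, rose in growing oocytes (47.6 and 45.6 against 76.5 and 70.1 FPKM; 0.64, adjusted p = 0.00702). Nanos1 fell in GV oocytes (7.38 and 8.08 against 2.97 and 3.19 FPKM; -1.10, adjusted p = 9.32e-05). The Pumilio protein Pum2 fell in GV oocytes (24.8 and 23.6 against 12.01 and 7.41 FPKM; -1.27, adjusted p = 0.000406) and in MII oocytes (-0.83, adjusted p = 0.00464). Cpeb1, which binds the CPE, did not differ beyond the spread in growing oocytes (221 and 250 against 228 and 249 FPKM) and rose in MII oocytes (9.16 and 10.6 against 29.3 and 24.8 FPKM; 1.37, SE 0.15, adjusted p = 3.18e-05).

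The transcripts with a level pattern most like that of Btg4 over the 12 libraries, among the 5966 genes whose mean reached 5 FPKM, were Snrpb2 (Pearson r = 0.98), Sub1, Tspan12, Mad2l1 and Snrpf (0.96 to 0.97). Those most like Cnot7 were Mbd3l2 (0.95), Ppp1r12a, Mllt10, Bmp5 and Serpinb1c (0.94 to 0.95). Among the 10 genes, Btg4 was most like Cnot3 (0.84) and least like Cnot8 (0.50), and Cnot7 was most like Btg4 (0.74) and least like Cnot8 (0.15). The 12 libraries share 6 groups and each library has its own scaling factor in all genes, so that these values are descriptions.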

How the data were processed

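Reads were trimmed by the authors to 50 bp and aligned with TopHat 2.1.1 (build mm9). Only uniquely mapped reads were used, and Cufflinks 2.2.1 gave FPKM values for UCSC gene models (versions per the submitters' processing notes). The authors deposited these FPKM values after multiplying each library by an ERCC factor relative to the WT growing library of the same replicate number. cDNA was primed with oligo-dT, so levels are of polyadenylated RNA. The factors were recovered from the values, which return to 6 significant digits once divided out. Genes below 1 FPKM in all libraries were dropped, and log2(FPKM + 1) was modelled in limma 3.58.1 (R 4.3.3) as 6 group means over the 12 libraries, with an intensity trend and Benjamini-Hochberg adjustment. In simulated GV data on 11502 genes it recovered 77% of 2-fold and 98% of 6-fold changes, and called 11 unchanged genes. The simulated noise was independent between genes, and changes were put only into genes whose mean reached 5 FPKM. No scaling error shared by the genes of a library was simulated, so these numbers do not measure that error. Within-library log2 ratios (1 FPKM added) were tested by exact permutation. Positions and sites came from GENCODE vM1 and the NCBIM37 (mm9) genome, and near-identical loci from minimap2. The methods state no test across genes. The 10 genes are all named; of each list (other CCR4-NOT subunits, other deadenylases, other BTG/TOB adaptors, RNA-binding proteins, markers) all genes were counted and at most 3 named per comparison, by smallest adjusted p among genes whose mean reached 5 FPKM; for Btg4 and Cnot7 the 5 most correlated genes were named. Pabpn1l and Cpeb1 values at other stages are given for comparison. The genes and lists were chosen with earlier results of these data known. The alternatives tried were averaged ERCC factors, median scaling, no ERCC scaling, a 0.1 FPKM pseudocount, other filters, a replicate block, only the groups compared, no trend, no pseudocount for the ratios, and leaving out each library. Protein sequences were not used here.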

Additional observations from a re-analysis of the deposited data

Results flagged for a closer look

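Of the 20 tests of whether the genotype difference of a gene changed between successive stages (10 genes, 2 steps), 2 passed an adjusted p of 0.05 (limma, Benjamini-Hochberg), both in the step from GV to MII. In that step 33.9% of all genes were called in the same direction. The median was 0.48 over all genes and 0.25 over the 10 genes. For Cnot8 the log2 change from GV to MII was higher by 1.13 in Zar1/2-null oocytes (95% interval 0.43 to 1.83, adjusted p = 0.0187). The 2 Zar1/2-null GV libraries of Cnot8 were far apart (48.1 and 83.8 FPKM), and the 2 Zar1/2-null MII libraries close (56.8 and 56.0 FPKM). For Cnot1 it was 0.63 higher (95% interval 0.15 to 1.10, adjusted p = 0.0435), with 1.16 to 1.68 FPKM in the 4 MII libraries. Neither passed without ERCC scaling (0.46 and 0.02, adjusted p = 0.25 and 0.971).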

How the results depend on the processing

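The lower level of Cnot7 in Zar1/2-null growing oocytes, of Cnot6 in GV and MII oocytes and the higher level of Cnot8 in MII oocytes were called in each alternative run, as were the lower levels of Cnot1 and Cnot10 at MII than at GV in both genotypes and of Cnot2 in Zar1/2-null oocytes. Most other calls depended on scaling. Without ERCC scaling and with median scaling, the genes called lower in Zar1/2-null oocytes numbered 1 and 1 in growing, 1 and 1 in GV and 5 and 4 in MII oocytes, those called lower from growing to GV 0 and 0 in WT and 0 and 0 in Zar1/2-null oocytes (2 and 2 higher in the latter), those from GV to MII 3 and 2 lower and 6 and 7 higher in WT, and 3 and 3 lower and 5 and 6 higher in Zar1/2-null oocytes. The interaction of the GV-to-MII step had 0 and 0 higher (2 lower with median scaling) and that of the growing-to-GV step 1 and 1 higher. The log2 change from GV to MII turned positive in WT for Btg4 (1.07 unscaled, 1.42 median-scaled), Cnot3 (0.85, 1.17), Cnot4 (0.75, 1.09), Cnot6 (0.83, 1.14), Cnot6l (0.97, 1.32), Cnot7 (1.39, 1.75) and Cnot8 (0.42, 0.77), and in Zar1/2-null oocytes for Btg4 (0.58, 0.86), Cnot3 (0.41, 0.66), Cnot4 (0.38, 0.65), Cnot6 (0.20 median-scaled), Cnot6l (0.58, 0.85), Cnot7 (0.96, 1.24) and Cnot8 (0.88, 1.16). From growing to GV in Zar1/2-null oocytes Cnot2 (0.016, 0.084) and Cnot4 (0.12, 0.18) turned positive, and with median scaling the GV-to-MII interaction of Cnot1 (-0.046) and Cnot2 (-0.56) negative, among 9 of 10 genes below 0 (8 of 10 unscaled, 1 of 10 as deposited). The scales multiply every gene of a library alike, but the filter and the added 1 FPKM come after that. The tested log2 change of a low gene therefore shifts less than that of a high gene. The genes tested also differed (11502 scaled, 12155 unscaled and 11175 median-scaled). The median log2 change of all genes from GV to MII in WT was -1.28 scaled, -0.39 unscaled and -0.16 median-scaled. With averaged ERCC factors 5 genes were lower in Zar1/2-null growing oocytes, 1 was higher from growing to GV in Zar1/2-null oocytes and 1 in the growing-to-GV interaction. These factors also added Btg4 and Cnot4 to the genes lower in Zar1/2-null GV oocytes and Cnot7 to those lower from GV to MII in WT. In Zar1/2-null oocytes they added Cnot8 to the genes lower from growing to GV and Btg4 to those lower from GV to MII. With only the groups compared 2 were lower in GV oocytes and 2 from growing to GV in Zar1/2-null oocytes. The 2 calls of the GV-to-MII interaction became 1 with a pseudocount of 0.1 FPKM, without a filter and with only the groups compared. Leaving out each library in turn, with the lone sample of a group assumed to vary like the others, gave 1 to 2 genes lower in Zar1/2-null growing, 1 to 5 in GV, 0 to 3 from growing to GV in WT, 2 to 5 in Zar1/2-null oocytes, and 0 to 2 higher in the GV-to-MII interaction; the Btg4 to Cnot7 ratio ranged from 0.38 to 0.49. The causes of these last changes were not tested beyond the fewer libraries used.

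The labels give all groups the replicate numbers 1 and 2. The ERCC factor of each library was set relative to the WT growing library of its number, so same-numbered libraries share that reference. Of 15 correlations across genes between the deviations of same-numbered libraries (-0.117 to 0.163), 4 were over 0.1. A shift common to all genes of a library hardly moves such a correlation, so these values cannot show that link. With a replicate block, Btg4 was called lower in Zar1/2-null growing (-0.50, adjusted p = 0.0185) and GV oocytes (-0.43, adjusted p = 0.0295) and from GV to MII in Zar1/2-null oocytes (-0.48, adjusted p = 0.0105), and Cnot6 from growing to GV in Zar1/2-null oocytes (-0.43, adjusted p = 0.0333). The block changed no other call.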

Other observations

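The summed level of the 9 CCR4-NOT subunits was 597 and 626 FPKM in WT growing, 431 and 541 FPKM in WT GV and 260 and 263 FPKM in WT MII oocytes, and 394 and 432, 324 and 375, and 235 and 246 FPKM in Zar1/2-null oocytes. At each stage both WT sums were above both Zar1/2-null sums. Without the spike-in factors the GV sums overlapped (618 and 647 FPKM in WT against 608 and 642 FPKM in Zar1/2-null oocytes), and those of the growing and MII stages did not. Btg4 was 3.62 to 3.88 times this sum in WT growing, 4.79 to 5.10 times in WT GV and 4.90 to 6.56 times in WT MII oocytes, and 3.62 to 4.26, 4.94 to 5.25 and 4.79 to 5.83 times in Zar1/2-null oocytes, so that the genotypes overlapped at each stage in this ratio, which does not depend on the spike-in factor. Cnot7 and Cnot8 together had 158 and 152 FPKM in Zar1/2-null and 163 and 151 FPKM in WT MII oocytes, where the rise of Cnot8 stood beside a lower mean of Cnot7. Without the factors these sums were separated, at 557 and 603 FPKM in Zar1/2-null against 663 and 727 FPKM in WT MII oocytes. These sums were formed after the data were seen and were not tested.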
